A study of Mus musculus with 12 samples.

Results

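Triglyceride is built on glycerol-3-phosphate, and 10 genes that supply this backbone or add fatty acids to it were followed in adipocytes carrying mutant PPARγ. They were taken from the count matrix by gene symbol, and all 10 were found among its 55573 genes. The supply side held Gpd1, Gpd2, Gk and Pck1, and the assembly side held Gpam, Agpat2, Agpat3, Lpin1, Dgat1 and Dgat2. PPARγ is the nuclear receptor that drives adipocyte differentiation. The cells were grown from the stromal vascular fraction (SVF), the mixed non-adipocyte cells of digested fat, here of mouse subcutaneous fat (the inguinal depot per the methods), and became adipocytes in culture.

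The donors were C57BL/6 mice homozygous for 1 of 3 forms of PPARγ. These were wild type (WT), T166A (TA), with alanine where a phosphorylatable threonine stands, and T166D (TD), with aspartate as a mimic of the phosphorylated residue. The mutations were made in the germline by CRISPR-Cas9, so every cell of a mouse carried them, and WT littermates served as controls. No Cre or transgene was involved, and the age of the donors is not given in the labels. All 3 genotypes received the same induction medium for 4 days, with 850 nM insulin, 1 nM T3 (triiodothyronine), 0.5 mM IBMX, 125 nM indomethacin and dexamethasone, for which the labels write 5 mM and the methods 5 μM. A medium with insulin and T3 followed until harvest on day 8. Each genotype had 4 libraries, numbered as replicates. Nothing says that these came from separate mice, so p-values measure only the spread between these samples, which may be technical.

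Total counts ran from 18823619 to 20324286 per library in WT, from 16950175 to 18182526 in TA and from 16553324 to 18357864 in TD. The adipocyte label was checked against 8 markers (Adipoq, Plin1, Fabp4, Cidec, Lep, Pparg, Cfd and Lipe), all of which were expressed. Their summed level was 12043 to 14368 CPM (counts per 1000000 of the normalized library size) in WT, 12476 to 16272 CPM in TA and 7989 to 9719 CPM in TD, so that each TD library lay below all WT and TA libraries. In TD, 7 of the 8 were lower than in WT by edgeR's quasi-likelihood test at an adjusted p under 0.05, with a median log2 fold change of -0.55 over the list. Markers of other cells moved as well. Skeletal muscle markers summed to 5.55 to 14.0 CPM in WT, 20.6 to 81.3 CPM in TA and 20.0 to 311 CPM in TD, where replicates 3 and 4 were the highest, and all 11 tested of 12 were higher in TD than in WT. Fibroblast and preadipocyte markers summed to 9050 to 12318 CPM in WT, 10259 to 18380 CPM in TA and 15503 to 23452 CPM in TD, with 5 of 7 tested genes higher in TD. All 5 endothelial markers were higher in TD. In TA against WT, 6 of 11 tested muscle markers, 4 of 7 fibroblast and preadipocyte markers and 3 of 5 endothelial markers were higher, and 0 were lower. Of the 8 adipocyte markers, 1 was higher and 1 lower in TA than in WT. For macrophages, 0 of 7 markers passed the test in TD or TA against WT. Between the mutants, 2 of these 7 (Cd68 and Lyz2) were higher in TD than in TA, with a median log2 fold change of 1.07 over the list and sums of 532 to 722 CPM in TD against 124 to 520.3 CPM in TA. The part of these cell markers in the results that follow was not tested.

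As background, adipocytes make glycerol-3-phosphate mainly from glucose carbon, by reduction of dihydroxyacetone phosphate, and also from pyruvate and amino acids by glyceroneogenesis, while glycerol kinase can reuse free glycerol. Acyltransferases then add fatty acids to the backbone in turn, a phosphatase removes the phosphate, and a last acyltransferase completes the triglyceride that fills the lipid droplet. Several genes of this route, Pck1 and the glycerol channel gene Aqp7 among them, are textbook targets of PPARγ, which binds DNA together with the retinoid X receptor.

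For that reason the sequence before the RefSeq start of each gene (build GRCm38.p6, 250 bases) was searched on both strands. RefSeq windows were matched for 7 of the 10 genes, with 9 windows in all. There was none for Gpd1, Dgat1 and Dgat2. Neither Aqp7, which is not among the 10 genes, nor sequence further from the start was searched. The letters searched were AGGTCA, the hexamer nuclear receptors recognise, the direct repeat AGGTCANAGGTCA bound by PPARγ with its partner, in which the hexamer occurs on each side, and TTACGTCA, a cAMP response element of a form known from Pck1. The 3 windows that held a match are shown, with the match in capitals and every base in an exon of the same gene left out. The Pck1 window (printed part chr2:173152823-173153047, plus strand) holds TTACGTCA from 93 bases before the RefSeq start. Those 93 bases include 25 bases of a Pck1 exon, up to 173153072, that are not printed. The Lpin1 window (chr12:16610967-16611216, minus strand) holds AGGTCA from 74 bases before the RefSeq start, and 1 of the 2 Gpam windows (chr19:55099478-55099727, minus strand) holds AGGTCA from 196 bases before it.
Pck1: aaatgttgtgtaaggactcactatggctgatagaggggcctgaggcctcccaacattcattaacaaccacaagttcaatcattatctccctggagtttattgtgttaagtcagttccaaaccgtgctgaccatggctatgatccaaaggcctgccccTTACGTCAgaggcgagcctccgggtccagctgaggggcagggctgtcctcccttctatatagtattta
Lpin1: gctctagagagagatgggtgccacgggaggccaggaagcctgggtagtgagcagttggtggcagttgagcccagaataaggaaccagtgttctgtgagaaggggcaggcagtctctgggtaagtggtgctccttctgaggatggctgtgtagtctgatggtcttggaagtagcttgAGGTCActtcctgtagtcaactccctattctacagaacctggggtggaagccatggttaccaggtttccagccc
Gpam: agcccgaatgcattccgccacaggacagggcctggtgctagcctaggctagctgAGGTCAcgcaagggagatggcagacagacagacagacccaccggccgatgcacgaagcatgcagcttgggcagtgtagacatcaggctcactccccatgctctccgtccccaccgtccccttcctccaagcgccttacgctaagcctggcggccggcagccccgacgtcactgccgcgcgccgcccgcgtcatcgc
AGGTCA is present in 14.0% of all 32851 windows of this length, TTACGTCA in 0.447% and the direct repeat in 0.033%, and 0 of the 9 windows held the repeat. Part of this Gpam window, 131 bases, lies in an exon of the antisense gene AC110206.1. A match describes the letters only, and the data hold no measure of binding there.

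Most of the 10 genes were lower in TD than in WT, and TA was mixed. In TD, 8 of 10 were lower than in WT and 0 higher (all but Gpam and Agpat3), where 14.2% of the 15117 genes tested were called lower and 15.1% higher. In TA, 4 were higher than in WT (Gpd1, Gpd2, Gpam and Dgat2) and 1 was lower (Pck1), against 6.72% higher and 4.41% lower of all genes tested. Between the mutants, 6 were lower in TD than in TA (Gpd1, Gpd2, Gpam, Agpat2, Lpin1 and Dgat2) and 0 higher, against 9.37% lower and 7.33% higher. The median log2 fold change over the 10 genes was -0.48 for TD against WT, 0.05 for TA against WT and -0.55 for TD against TA, while the medians over all genes tested were 0.01, -0.01 and 0.02. With library totals in place of TMM factors, 64.6% of all calls in TD against WT and 64.7% in TD against TA were higher, in place of 51.5% and 43.9%. The 3 comparisons share libraries, so they are set side by side only. In bulk RNA of this kind, fewer adipocytes in a culture and less RNA of a gene per adipocyte cannot be told apart. The adipocyte markers stood at a median of -0.55 in TD against WT, beside -0.48 for the 10 genes.

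**Figure D1:**
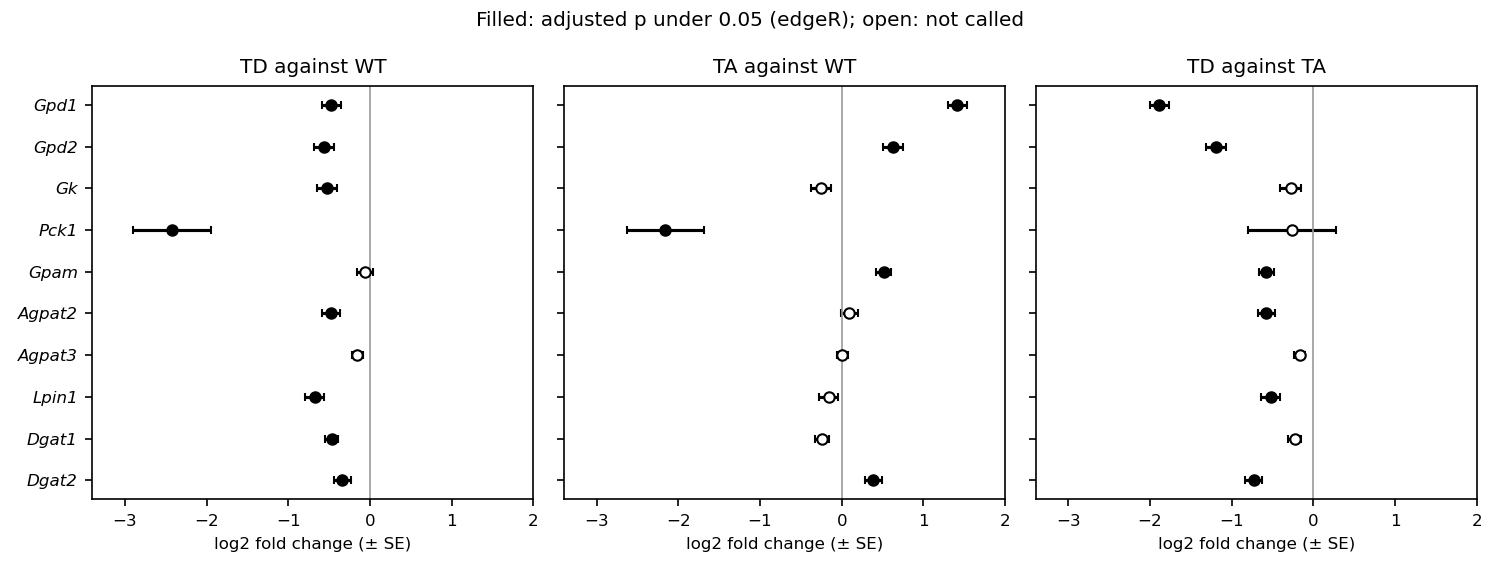
Log2 fold change of each of the 10 genes (x axis) in TD against WT, TA against WT and TD against TA, as the edgeR estimate ± SE, with filled symbols for an adjusted p under 0.05 and open symbols for the others. All 10 estimates lie below 0 in TD against WT and in TD against TA, while TA against WT runs from -2.16 for Pck1 to 1.41 for Gpd1.

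TD replicates 3 and 4 were the libraries with the most muscle marker counts. Their adipocyte marker sums were 8459 and 7989 CPM, against 9703 and 9719 CPM in TD replicates 1 and 2. Their fibroblast and preadipocyte sums were 21413 and 23452 CPM, against 15503 and 17657 CPM. The part of any of these markers in the following was not tested. Without TD replicates 3 and 4, TD had 4 calls among the 10 genes against WT (Pck1, Agpat2, Lpin1 and Dgat1) and 5 against TA, all of them lower. The estimates for the genes lost against WT were then -0.44 for Gpd1, -0.45 for Gpd2, -0.37 for Gk and -0.29 for Dgat2, and Lpin1 was lost against TA at -0.44. Only 2 TD libraries remain in that fit, in which the number of all genes called in TD against WT fell from 4418 to 1516. Of the 15673 genes tested there, 679 were called lower in TD against WT and 448 in TD against TA. Libraries did not overlap, with every TD library below every WT library, for 9 of the 10 genes, where this order held for 16.4% of all genes tested. TD was below TA in this way for 7 of them, against 10.6% of all genes tested. TA was above all WT libraries for 3 (Gpd1, Gpd2 and Gpam, against 7.71% of all genes) and below them for 2 (Pck1 and Dgat1, against 5.85%).

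Gpd1 (chr15:99717515-99725005, GRCm38) encodes the cytosolic glycerol-3-phosphate dehydrogenase, which reduces dihydroxyacetone phosphate to glycerol-3-phosphate and is abundant in fat. In WT its level was 482, 422, 399.7 and 557 CPM in replicates 1 to 4, in TA 1361, 1326, 1291 and 980.0 CPM, and in TD 325, 359.7, 312 and 344 CPM. The 3 genotypes did not overlap, with TA highest, WT between and TD lowest. Gpd1 was 2.66-fold higher in TA than in WT (log2 fold change 1.41 ± 0.116 SE, edgeR adjusted p = 9.56e-07), the largest rise of the 10 genes. It was lower in TD than in WT by a log2 fold change of -0.47 ± 0.115 (edgeR adjusted p = 0.00572) and 3.70-fold lower in TD than in TA (-1.89 ± 0.118, edgeR adjusted p = 6.38e-08).

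Gpd2 (chr2:57237635-57370719) encodes the mitochondrial enzyme, which oxidises glycerol-3-phosphate back to dihydroxyacetone phosphate and passes the electrons to the respiratory chain, so that with Gpd1 it forms the glycerol phosphate shuttle. Its libraries stood at 102, 105, 95.1 and 106 CPM in WT, at 182, 184, 148 and 116 CPM in TA and at 79.7, 70.2, 63.0 and 63.0 CPM in TD. Each TA library was above all WT libraries, the nearest being replicate 4, and each TD library was below them. Gpd2 was 1.54-fold higher in TA (log2 fold change 0.63 ± 0.121, edgeR adjusted p = 0.00294) and lower in TD (-0.57 ± 0.122, edgeR adjusted p = 0.00271), and TD was 2.29-fold below TA (-1.19 ± 0.123, edgeR adjusted p = 1.18e-05). Both dehydrogenase genes thus lay in the order TA, WT, TD.

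The pair did not change in proportion. The ratio of Gpd1 to Gpd2 counts per kilobase of exon, which does not depend on how libraries are scaled, was 10.4, 8.88, 9.29 and 11.6 in the WT libraries, 16.5, 15.9, 19.3 and 18.6 in TA, and 9.00, 11.3, 11.0 and 12.1 in TD. The TA ratios were all above those of both other genotypes, which overlapped each other. In exact permutation tests (two-sided, 4 libraries each), TA exceeded WT by 0.81 on the log2 scale and TD was below TA (difference -0.70), each with p = 0.0286, the smallest value this design allows, and an adjusted p of 0.0343 over the 6 ratio tests. TD and WT differed by 0.11 (exact permutation p = 0.400).

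**Figure D2:**
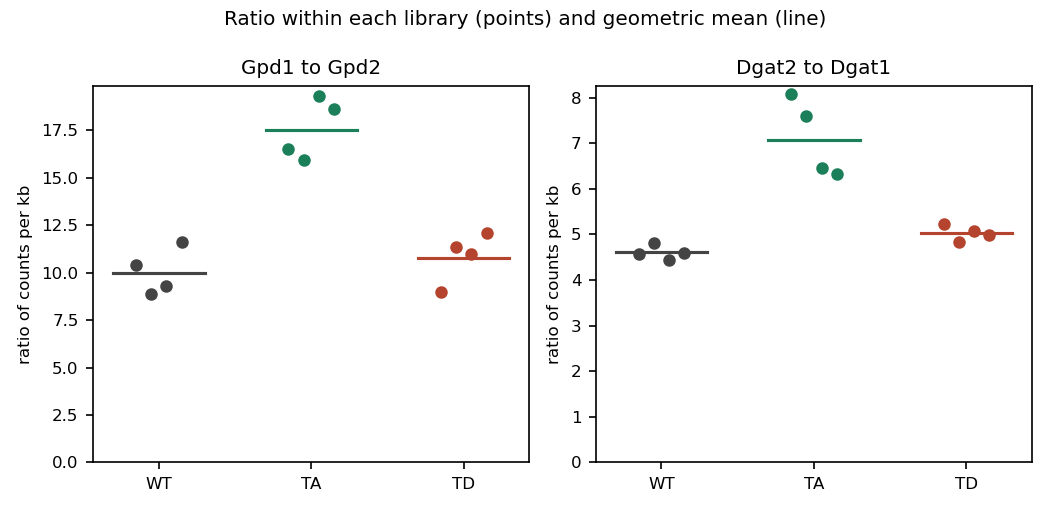
Ratio within each library (points, n = 4 per genotype) of Gpd1 to Gpd2 and of Dgat2 to Dgat1, as counts per kilobase of exon on linear axes that start at 0, with the geometric mean as a line. The TA libraries stand above WT and TD in both panels, at 15.9 to 19.3 for Gpd1 to Gpd2 and at 6.32 to 8.07 for Dgat2 to Dgat1.

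Pck1 (chr2:173153048-173159273) encodes cytosolic phosphoenolpyruvate carboxykinase, the controlling enzyme of glyceroneogenesis. It was sparsely counted in all 3 genotypes. The 4 libraries of WT held 104, 33, 47 and 104 counts, those of TA 16, 8, 8 and 26, and those of TD 22, 12, 11 and 5. Every TA and TD library was below the lowest WT library, and the WT libraries themselves spanned 1.64 to 5.70 CPM. Pck1 was 4.48-fold lower in TA than in WT (log2 fold change -2.16 ± 0.472, edgeR adjusted p = 0.00679) and 5.37-fold lower in TD (-2.42 ± 0.481, edgeR adjusted p = 0.00154). It was the only one of the 10 genes called lower in both mutants. Between TD and TA the difference was -0.26 with a 95% interval of -1.40 to 0.87, which includes large differences in either direction. The mitochondrial isoenzyme gene Pck2 was also lower in both, by -0.57 in TA and -0.41 in TD on the log2 scale (edgeR adjusted p = 0.00113 and 0.00458).

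Gk (chrX:85701937-85776819) encodes glycerol kinase, which phosphorylates free glycerol and is low in white fat. Its level was 12.6, 12.7, 13.0 and 15.3 CPM in WT, 12.6, 11.5, 10.7 and 10.3 CPM in TA and 10.0, 10.7, 7.82 and 8.62 CPM in TD. The TD libraries were all below the WT libraries (log2 fold change -0.53 ± 0.123, edgeR adjusted p = 0.00461), while TA overlapped both. TA differed from WT by -0.25 (95% interval -0.51 to 0.01, edgeR adjusted p = 0.220). The related kinase gene Gk5 had no call against WT and was higher in TD than in TA (0.31, edgeR adjusted p = 0.0374).

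**Figure D3:**
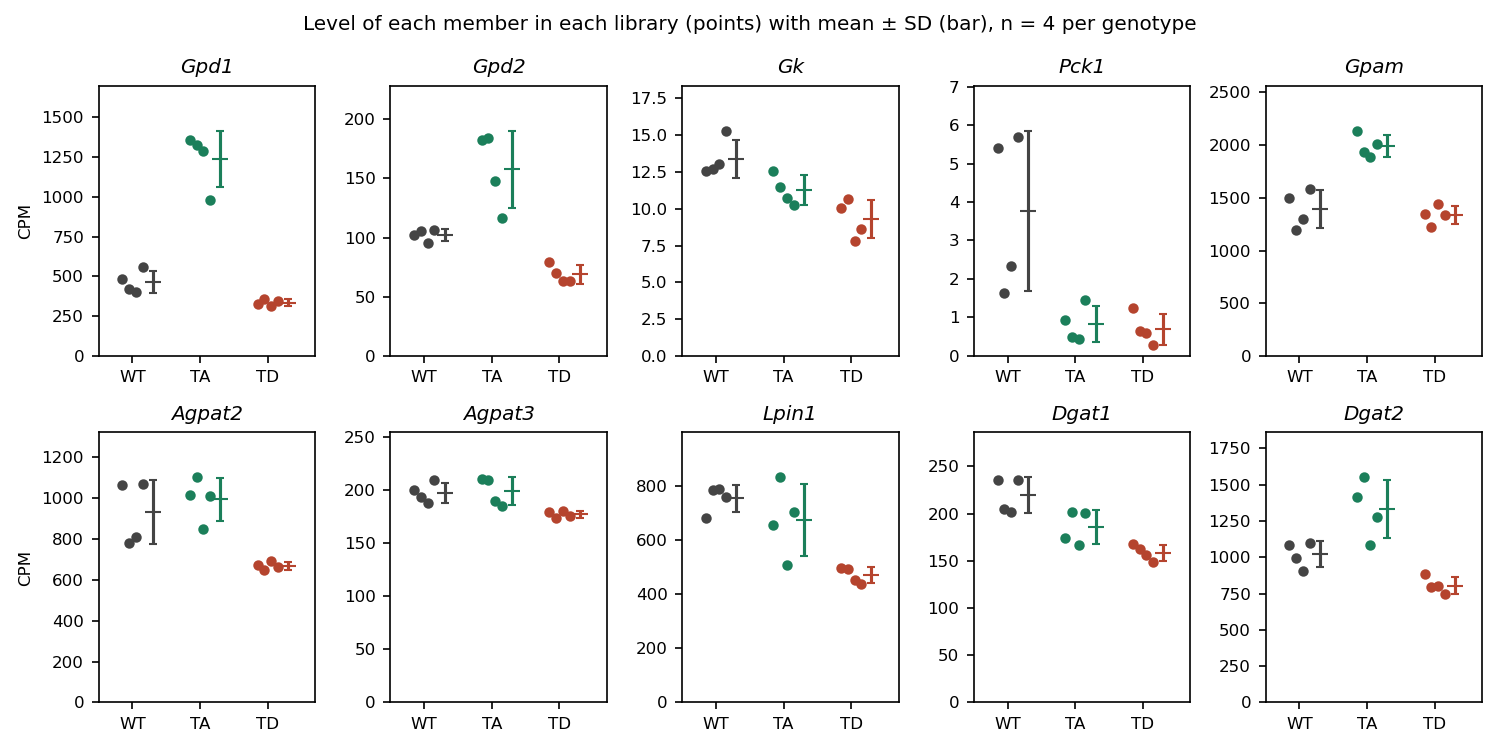
CPM of each of the 10 genes (y axes start at 0 and differ between panels) in the 4 libraries of WT, TA and TD, as points in replicate order with mean ± SD beside them. Gpd1 and Gpd2 separate all 3 genotypes, TD lies below WT in every panel but that of Gpam, and Pck1 is at 5.70 CPM or less throughout.

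Gpam (chr19:55067268-55127238) encodes the mitochondrial glycerol-3-phosphate acyltransferase, which adds the first fatty acid and commits the backbone to glycerolipid. Its level was 1503, 1195, 1303 and 1584 CPM in WT, 2135, 1934, 1892 and 2009.9 CPM in TA and 1347, 1223, 1439 and 1341 CPM in TD. TA was above all other libraries, and TD lay inside the WT range. Gpam was 1.43-fold higher in TA than in WT (log2 fold change 0.51 ± 0.0946, edgeR adjusted p = 0.00205), and TD was below TA (-0.58 ± 0.0947, edgeR adjusted p = 0.000789). Against WT, TD differed by -0.06 with a 95% interval of -0.26 to 0.14 (edgeR adjusted p = 0.665), and the sign of this estimate turned with library totals as the scale and without WT replicate 4. It was thus the gene of the 10 with the smallest estimate in TD, beside adipocyte markers that were at a median log2 fold change of -0.55.

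Agpat2 (chr2:26593057-26604417) encodes the enzyme that adds the second fatty acid, giving phosphatidate, and its loss causes generalized lipodystrophy. WT libraries held 1064, 782, 807 and 1068 CPM, TA libraries 1016, 1099.6, 847 and 1009 CPM, and TD libraries 670.3, 646, 691 and 660.3 CPM. WT was split between replicates 1 and 4 and replicates 2 and 3, and TD lay below all libraries of both other genotypes with little spread. The log2 fold change of TD was -0.48 ± 0.109 against WT (edgeR adjusted p = 0.00387) and -0.57 ± 0.109 against TA (edgeR adjusted p = 0.00222). TA and WT differed by 0.09 (95% interval -0.14 to 0.32, edgeR adjusted p = 0.652).

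Agpat3 (chr10:78269178-78352489), a family member that acts on several lysophospholipids, varied little between genotypes. It stood at 201, 194, 188 and 209 CPM in WT, at 210.2, 210.1, 190.0 and 185 CPM in TA and at 179, 174, 181 and 176 CPM in TD. The TD libraries were all below the others, by a log2 fold change of -0.16 ± 0.0667 against WT, yet this missed the threshold (edgeR adjusted p = 0.0900) and passed it with DESeq2 (adjusted p = 0.0387). TA and WT differed by 0.01 with a 95% interval of -0.13 to 0.15, and the estimate turned to -0.0020 with library totals as the scale.

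Lpin1 (chr12:16535669-16610966) encodes lipin 1, the phosphatidate phosphatase that yields diacylglycerol, and mice without it have fatty liver and lipodystrophy. Its level was 680.2, 784, 786 and 759 CPM in WT, 655, 829.6, 507 and 704 CPM in TA and 497, 493, 452 and 438 CPM in TD. TD was below every other library, and the TA libraries were widely spread around the WT range. Apart from Pck1, Lpin1 had the largest fall in TD against WT of the 10 genes (log2 fold change -0.68 ± 0.115, edgeR adjusted p = 0.000546), and TD was also below TA (-0.52 ± 0.115, edgeR adjusted p = 0.00628). TA differed from WT by -0.16 (95% interval -0.40 to 0.08, edgeR adjusted p = 0.431).

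The last step, from diacylglycerol to triglyceride, is shared by DGAT1 and DGAT2, enzymes of unrelated sequence. Dgat1 (chr15:76502015-76511953) stood at 236, 205, 202 and 236 CPM in WT, at 174, 202, 167 and 200.5 CPM in TA and at 168, 163, 156 and 148 CPM in TD. TD was below all WT libraries and had a log2 fold change of -0.47 ± 0.0827 (edgeR adjusted p = 0.000675). The TA libraries were below the WT libraries too, if barely, with a difference of -0.24 ± 0.0825 that missed the threshold (edgeR adjusted p = 0.0719) and passed it with DESeq2 (adjusted p = 0.0417), with library totals and without TA replicate 2 or 4.

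Dgat2 (chr7:99153658-99182719) went the other way in TA. Its level was 1087, 996, 907 and 1095 CPM in WT, 1418, 1549, 1087 and 1277 CPM in TA and 882, 793, 799.6 and 745 CPM in TD. TA replicate 3 lay within the WT range, while the TD libraries were all below it. TA differed from WT by 0.38 ± 0.104 on the log2 scale (edgeR adjusted p = 0.0247), TD from WT by -0.34 ± 0.104 (edgeR adjusted p = 0.0208) and TD from TA by -0.73 ± 0.105 (edgeR adjusted p = 0.000259). Both calls against WT were close to the threshold. The rise in TA passed the threshold no longer without WT replicate 2, WT replicate 3, TA replicate 1 or TA replicate 2 (log2 fold changes of 0.30 to 0.37, adjusted p up to 0.0818 with edgeR) or with TA and WT fitted alone. The fall in TD was lost without WT replicate 1 or 4 or TD replicate 2, 3 or 4 (log2 fold changes of -0.34 to -0.31, edgeR adjusted p up to 0.0696). The difference between TD and TA kept its call in every alternative.

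The ratio of Dgat2 to Dgat1 per kilobase was 4.57, 4.81, 4.45 and 4.60 in WT, 8.07, 7.61, 6.45 and 6.32 in TA and 5.22, 4.83, 5.08 and 4.98 in TD. No genotypes overlapped, with TA well above and TD only just above WT. TA exceeded WT by 0.62 on the log2 scale, TD exceeded WT by 0.13, and TD minus TA was -0.49, each with p = 0.0286 and an adjusted p of 0.0343 by the exact two-sided permutation test. With single libraries left out, the difference between TD and WT was 0.11 to 0.15, and it missed the threshold without any of the 8 libraries but WT replicate 2 (exact permutation, adjusted p = 0.0686). TD and WT still did not overlap in any of these cases, since the lowest TD ratio was 4.83 and the highest WT ratio 4.81. The exact test has few possible p-values with so few libraries.

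Levels between genes were compared per kilobase of exon. In WT the order was Agpat2 at 437 CPM per kb, Dgat2 at 331, Gpam at 209, Gpd1 at 157, Lpin1 at 77.9, Dgat1 at 71.9, Agpat3 at 25.4, Gpd2 at 15.6, Gk at 1.73 and Pck1 at 1.10 CPM per kb. In 3 neighbouring pairs libraries overlapped, namely Gpam with Gpd1, Lpin1 with Dgat1 and Gk with Pck1. In TA, Gpd1 stood at 419 CPM per kb, above Gpam at 299 with no overlap and within the range of Dgat2 at 432 CPM per kb. In TD, Gpd1 fell to 113 CPM per kb and was again below Gpam at 201 CPM per kb. Taking the longest transcript as the length changed which neighbours overlap (Gpd1 and Gpam in TA overlapped, Gpd1 and Dgat2 did not), so the order of close pairs depends on the transcript assumed.

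**Figure D4:**
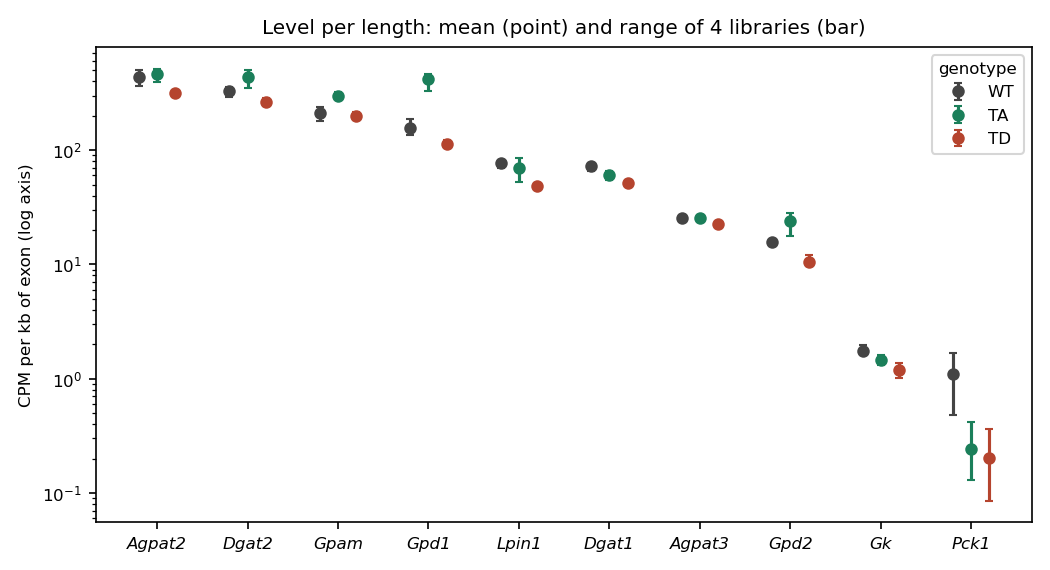
Level of each of the 10 genes in CPM per kb of exon (log axis) in WT, TA and TD, as the mean of 4 libraries with bars from the lowest to the highest library. Agpat2 has the highest mean in each genotype (437, 466 and 313 CPM per kb), but its TA libraries overlap those of Dgat2 and Gpd1. Gk and Pck1 lie far below the rest.

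At 4 steps, the acyltransferase and phosphatase steps, 1 gene supplied most of the RNA. Gpam held 83.4% ± 0.323 (SD, n = 4) of the counts per kilobase on the 4 glycerol-3-phosphate acyltransferase genes in WT, 86.4% ± 1.58 in TA and 86.6% ± 0.745 in TD. Agpat2 held 88.1% ± 1.38 of those on Agpat1 to Agpat5 in WT, 89.5% ± 0.727 in TA and 84.8% ± 0.465 in TD. Lpin1 held 90.6% ± 0.429 of the lipin total in WT, 88.9% ± 2.22 in TA and 83.0% ± 1.14 in TD. In TD the shares of Agpat2 and Lpin1 were below the range of both other genotypes, while Lpin3 made up 7.40% ± 0.456 of the lipin counts in WT and 14.4% ± 0.900 in TD. Dgat2 held 82.2% ± 0.470 of the DGAT total in WT, 87.6% ± 1.31 in TA and 83.4% ± 0.449 in TD. For glycerol kinase no such gene stood out, with Gk at 1.73 and Gk5 at 1.58 CPM per kb in WT and at 1.2 and 1.68 CPM per kb in TD. Differences in these shares were not tested. The shares also depend on the length assumed, here the union of exons. With the longest transcript, Lpin1 in WT stood at 135 in place of 77.9 CPM per kb, and Lpin3 at 6.76 in place of 6.35 CPM per kb.

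The other genes of the route were counted from 2 lists, 14 isoenzymes and 16 genes of carbon supply, regulation and neighbouring steps, of which 26 of 30 were abundant enough to test. In TD against WT, 3 were higher and 10 lower (median log2 fold change -0.23), against 15.1% and 14.2% of all genes tested. TA had 3 higher and 4 lower than WT (median -0.0003), beside all-gene shares of 6.72% and 4.41%. TD had 1 higher and 8 lower than TA (median -0.11), beside 7.33% and 9.37%. Among the isoenzymes, Gpat4, another acyltransferase of the first step, fell in TD (-0.55, edgeR adjusted p = 0.000376), and Agpat4 and Lpin3 rose in TD (0.49 and 0.41, edgeR adjusted p = 0.0112 and 0.00701). Gpat3, the endoplasmic reticulum counterpart of Gpam, was higher in TA than in WT (0.58, edgeR adjusted p = 0.0124), and its TD level was below that of TA (-0.81, edgeR adjusted p = 0.00103).

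Aqp7, the channel through which adipocytes release glycerol, stood at 17.0, 18.5, 14.0 and 20.99 CPM in WT, 27.6, 33.5, 20.0 and 25.7 CPM in TA and 11.0, 14.3, 9.63 and 8.97 CPM in TD. WT overlapped with TA at TA replicate 3 and with TD at TD replicate 2, and the mutants did not overlap each other. Against WT, its log2 fold change was 0.60 for TA and -0.68 for TD (edgeR adjusted p = 0.0264 and 0.00708), with -1.28 between TD and TA (edgeR adjusted p = 0.000144). Of the genes that bring carbon to the backbone, Mdh1, Pcx, Got1 and Tpi1 were lower in TD than in WT, by -0.49, -0.38, -0.39 and -0.31 on the log2 scale. Of these, Got1 was also lower in TA (-0.32, edgeR adjusted p = 0.0359). The lipid droplet genes Bscl2 (seipin) and Fitm2 were lower in TD by -0.31 and -0.49 (edgeR adjusted p = 0.0141 and 0.00142).

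Cds1 draws phosphatidate away from triglyceride, into CDP-diacylglycerol for phosphatidylinositol. It was sparse, at 24, 19, 36 and 18 counts in the WT libraries, 89, 76, 86 and 72 in those of TA and 43, 49, 79 and 63 in those of TD. Both mutants were above all WT libraries, 3.74-fold in TA (log2 fold change 1.90 ± 0.248, edgeR adjusted p = 9.87e-05) and 2.60-fold in TD (1.38 ± 0.251, edgeR adjusted p = 0.000831). Cds2, which encodes the other enzyme of this step, was called in none of the comparisons. Without TD replicates 3 and 4, 5 of these 26 genes were called in TD against WT and 4 in TD against TA, while the calls over all genes fell from 4418 to 1516 and from 2524 to 634.

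**Figure D5:**
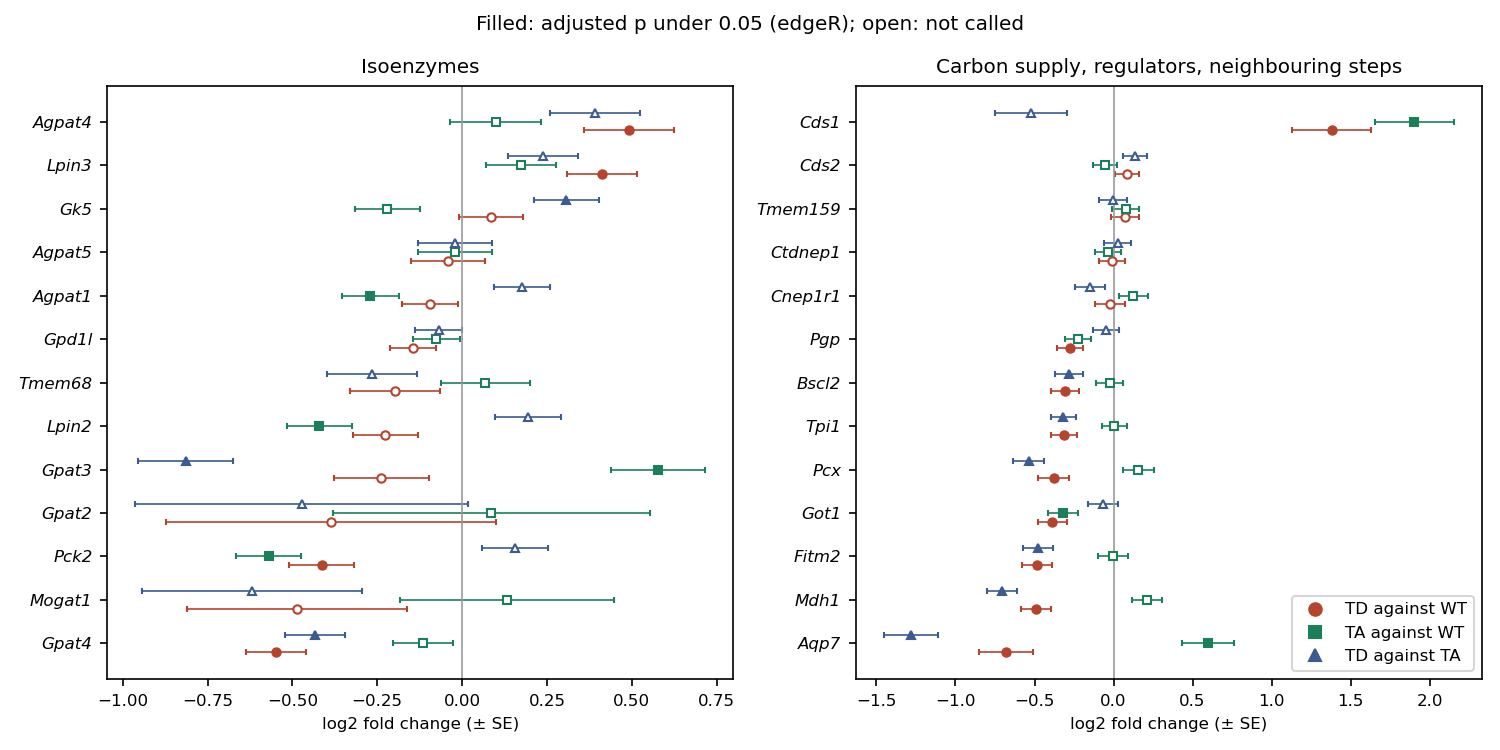
Log2 fold change (edgeR estimate ± SE, x axis) of the 26 other tested genes of the route, as isoenzymes and as genes of carbon supply, regulation and neighbouring steps, in TD against WT, TA against WT and TD against TA, with filled symbols for an adjusted p under 0.05. Most called genes lie below 0 where TD is compared, with Aqp7 lowest at -1.28 against TA and Cds1 at 1.90 in TA the largest rise.

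The 4 WT libraries fell in a similar order for many of these genes. WT replicates 1 and 4 were both above WT replicates 2 and 3 for 7 of the 10 genes (all but Gpd2, Gk and Lpin1), an order seen in 22.0% of all genes tested. The same libraries had adipocyte marker sums of 14368 and 13946 CPM, against 12043 and 12480 CPM in replicates 2 and 3, and macrophage marker sums of 398 and 255 CPM against 713 and 478 CPM. This order was looked for after the values were seen, and the part of these markers in it was not tested.

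The genes whose log2 CPM followed each of these most closely over the 12 libraries were named as a description, with Pearson's r across libraries that share genotypes and depth, among the 9024 genes that averaged 10 CPM or more. For Gpd1 they were Aldh3b2 (r = 0.988), Tmem86a (0.988) and Sptlc3 (0.985), and for Gpd2 Map7d2 (0.981), Bcap31 (0.975) and Hsd17b12 (0.972). Dgat2 was followed by Glul (0.994), the glutamine synthetase gene, then by Bcap31 (0.973) and Pmvk (0.971). Gpam was followed by Cdc42se1 (0.967) and Cyp51 (0.964), and Agpat2 by Abhd5 (0.972), Anxa6 (0.970) and Ndufs8 (0.970). Lpin1 was followed by Fam214a (0.972), Dgat1 by Pgam5 (0.985), Pck1 by Amdhd2 (0.964) and Gk by Chchd4 (0.935).

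Reads where these genes share exon bases with a neighbour could have been left out or given to the wrong gene. Which of these applies is not known, because the strand setting of the counting is not given. Exons of Gpd1, Gpd2, Gk, Agpat2 and Agpat3 overlap genes on the opposite strand, by 384, 487, 84, 64 and 16 bases, and reads there cannot be told apart without strand. The mean count on the opposite gene was 11.3 for Gm16537 beside 12151 on Gpd1, 31.5 for A930012O16Rik beside 1981 on Gpd2, 282.5 for Egfl7 beside 15724 on Agpat2, 0 for Gm14764 beside 207 on Gk, and 0.6 for Gm40709 beside 3492 on Agpat3.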

How the data were processed

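RNA of SVF-derived subcutaneous adipocytes of 3 genotypes (WT, TA, TD) was analysed, 4 libraries each, grouped by the genotype in the labels. The authors deposited raw counts of reads per gene for 55573 genes, without normalization, aligned to GRCm38. The submitters' processing notes list bcl2fastq 2.17.1.14, cutadapt 1.9.1, HISAT2 2.0.1 and HTSeq 0.6.1, and the strand setting is not given in the sources used here. The table and the per-library files held equal counts for all 12 libraries. In every replicate pair the counts differed beyond sampling noise (chi-square divided by its degrees of freedom was 4.89 to 37.7), so no library was a copy of another. Each library counted as 1 sample, although this check cannot show that they came from separate mice. The depth of 16553324 to 20324286 counts per library limits precision for sparsely counted genes such as Pck1 and Cds1, and intervals cover the spread between these libraries.

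Counts were tested with edgeR 4.0.16 (R 4.3.3), whose filterByExpr (minimum count 10, minimum total 15) kept 15117 genes. Libraries were scaled by TMM, all 12 libraries entered 1 quasi-likelihood fit, p-values of each comparison received a Benjamini-Hochberg adjustment across all genes tested, and an adjusted p under 0.05 was a call. The SE is the log2 fold change divided by the square root of the F statistic. CPM are counts per 1000000 of the normalized library size, and levels per kb divide by the union of exons in GENCODE M21 (GRCm38). Log2 CPM used a prior count of 2. Ratios within a library were compared by exact permutation (two-sided, adjusted over 6 tests). The edgeR and DESeq2 fits were checked on simulated counts for TD against WT. The ratios, shares, levels per kb and promoter search were not checked in this way.

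Replicate numbers are shared between genotypes in the labels, but same-numbered libraries did not deviate together (correlations -0.237 to 0.196), so no pairing was used. Alternatives were DESeq2 1.42.0, other size factors, library totals, other filters, fits of 2 genotypes, a replicate block, transcript length and each library left out. Leaving out TD replicates 3 and 4 together was added after the data were seen. The genes named are the 10 genes, those of the 2 lists of other enzymes called in any comparison, and per gene up to 3 with the highest correlation. Some genes that this rule names are not reported here. Cds2 and Gk5 are named beside the related genes, and marker genes are those of 6 lists (adipocyte, skeletal muscle, macrophage, endothelium, fibroblast and preadipocyte, liver). Liver markers summed to 0.991 to 6.61 CPM. The genes and lists were chosen with earlier results of these data known. Promoter sequences are from RefSeq (GRCm38.p6).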

Additional observations from a re-analysis of the deposited data

How the results depend on the processing

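Of 467 values of the 10 genes under alternatives, 434 kept their direction and their side of the threshold, 15 lost a call, 8 gained one and 10 changed sign, all of the last among differences that were not called. Signs changed for Agpat3 in TA against WT with library totals (-0.0020), with no filter (-0.0044) and without WT replicate 2 (-0.0027), WT replicate 3 (-0.022), TA replicate 1 (-0.022) or TA replicate 2 (-0.023, from -0.023 to 0.036 over single libraries left out), for Gpam in TD against WT with library totals (0.0082) and without WT replicate 4 (0.0026, from -0.13 to 0.0026 over single libraries left out), and for Pck1 in TD against TA without TA replicate 4 (0.16) and without TD replicates 3 and 4 (0.18). Without TD replicates 3 and 4, 4 of the 10 genes were called in TD against WT, and 5 and 4 of the other enzymes in TD against WT and TD against TA, where fewer samples remain. Of the 15673 genes tested in that fit, 1516 and 634 were called. With each library left out, the called genes of the 10 numbered 7 to 8 (TD against WT), 4 to 6 (TA against WT) and 6 to 7 (TD against TA), and the other enzymes in TA against WT 4 to 8, with 4 without WT replicate 1 and without TA replicate 1, where the cause was not tested. The same fits tested 15344 to 15431 genes. Of all these, 3121 to 4413 were called in TD against WT, 1160 to 1939 in TA against WT and 1422 to 3526 in TD against TA. The Dgat2 to Dgat1 difference between TD and WT was then 0.108 to 0.146, with an exact permutation adjusted p of 0.0686 in all cases but the one without WT replicate 2 (0.0343). TD and WT ratios did not overlap in any of these cases, and the exact test has few possible p-values with so few libraries.

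The replicate block left the calls at 8, 5 and 6 of the 10 genes, and the counts over all genes at 4246, 1560 and 2488. Of 24 pairs of a library with another genotype, 5 correlated best with their own number. For the ratios the paired differences were 0.81 and -0.70 for Gpd1 to Gpd2 (TA against WT, TD against TA) and 0.13, 0.62 and -0.49 for Dgat2 to Dgat1 (TD against WT, TA against WT, TD against TA), with an exact adjusted p of 0.15, since 4 pairs cannot go below 0.125. Library totals alone moved the median of all genes to 0.08 in TD against WT and 0.10 in TD against TA, and the share of higher calls from 51.5% to 64.6% and from 43.9% to 64.7%, and without TD replicates 3 and 4 that share was 29.3% in TD against TA. Depth limits Pck1, with 5 to 104 counts per library.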
